A study of Mus musculus with 6 samples.

Results

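Enterospheres are free-floating spheroids that form when the dissociated muscle layers of the newborn gut are cultured with growth factors. Beside the neural crest-derived progenitors for which they are grown, the starting tissue holds fibroblasts, blood and lymph vessels, resident macrophages and the mesothelium that covers the outer surface of the gut. The 40 genes described here mark such other cells of the gut wall. They comprise 9 markers of fibroblasts, 10 of endothelial cells, 11 of macrophages and other immune cells, 6 of epithelium and 4 of mesothelium. They were listed by symbol, with earlier results of these data known. All 40 were found among the 19938 genes with a probe set of their own on the array.

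The comparison was made between groups of 3 samples each, all from newborn (P0) C57BL/6 mice. Enterospheres of the differentiation group had spent 9 days in proliferation medium and 2 days in differentiation medium, which lacked EGF and FGF and contained ascorbic acid-2-phosphate. Enterospheres of the proliferation group were kept for 11 days in proliferation medium with daily EGF at 10 ng/mL and FGF at 20 ng/mL. The labels name 3 mice per sample, whereas the methods of the study name fewer pups, from a single litter per experiment, and a higher EGF concentration. The labels state that the picked spheres were divided between both media, but not whether samples of the same number came from one culture. Withdrawal of the growth factors and addition of ascorbic acid-2-phosphate cannot be told apart. The methods also state that free-floating spheres were picked to reduce the share of adherent fibroblasts and smooth muscle cells, and the tissue taken was gut muscle, whereas the epithelium lies in the mucosa.

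Each cell type of the gut wall is known by a small set of proteins. Fibroblasts secrete matrix proteins such as dermatopontin and the fibulins and carry Thy1 and, in many tissues, Cd34 on their surface. Endothelial cells line vessels, are joined by VE-cadherin and respond to vascular endothelial growth factor and angiopoietins through the receptors Kdr, Flt1 and Tek. Macrophages carry the pan-leukocyte phosphatase Ptprc (CD45), depend on the receptor Csf1r and produce complement C1q. Simple epithelia contain the keratins Krt8, Krt18 and Krt19, and mesothelial cells make mesothelin, uroplakin 3b and the transcription factor Wt1.

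Values are given as deposited, as log2 units after RMA normalisation, and each change is the mean of differentiation minus the mean of proliferation on that scale. Arrays of the same group correlated at 0.988 to 0.995 over all probe sets, and arrays of different groups at 0.983 to 0.989. No detection calls were used, and because probe sets differ in brightness the level of one gene was not ranked against that of another. A pair of marks was used to describe levels. The first was the 95th percentile of the 1035 probe sets of odorant receptors, which are best known from the olfactory epithelium, and lay at 5.47. The second was the median of all 35556 probe sets, at 6.15. All 10 measured markers of enteric neural and glial cells lay above both marks, for example Sox10, the neural crest transcription factor, with 11.58, 11.71 and 11.68 in differentiation and 11.33, 11.49 and 11.30 in proliferation. Sox10 was picked out for this check. Array values carry no counts, so precision rests on the 3 arrays per group. The labels do not link the samples to the 3 independent experiments that the methods of the study name. The main comparison therefore did not pair samples, and its p-values measure the spread between these samples alone.

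Of the 40 markers, 2 rose in differentiating enterospheres, 0 fell and 38 did not pass limma's test at an adjusted p under 0.05. The share of 5.00% lay close to the 5.91% of all measured genes that passed, with 2.94% higher and 2.97% lower, and to the 4.10% of all probe sets (1.95% higher and 2.15% lower). The 2 were the fibroblast matrix gene Dpt and the endothelial gene Egfl7. In these bulk samples, a change in the number of cells of a type and a change in RNA per cell cannot be told apart. At an unadjusted p under 0.05, 6 of the 40 markers (15.0%) and 19.1% of all genes passed. Positive differences were seen in 20 of the 40 markers, and the median change was -0.01, against 0.02 over all genes. The groups did not overlap in 10 markers (25.0%), 6 of them higher and 4 lower in differentiation, where 27.5% of all genes showed no overlap. With 3 arrays against 3, an exact permutation test of a single gene cannot give a two-sided p below 0.1.

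Because the results turn on Egfl7 and its contrast with other endothelial genes, the sequence around the transcription starts is shown for Egfl7, which has 3 windows in RefSeq, and for the endothelial receptors Tie1 and Kdr, which did not pass the test. Endothelial genes are widely bound by transcription factors of the ETS family, and capitals mark 3 ETS-type words of 7 letters on either strand, which share their last 5 letters and are spelled out after the sequences. Each window runs from 250 bases before to 50 bases after the start, 5′ to 3′ on the gene's strand, build GRCm38.p6.
Egfl7 window 1 (chr2:26580833-26581132, plus strand): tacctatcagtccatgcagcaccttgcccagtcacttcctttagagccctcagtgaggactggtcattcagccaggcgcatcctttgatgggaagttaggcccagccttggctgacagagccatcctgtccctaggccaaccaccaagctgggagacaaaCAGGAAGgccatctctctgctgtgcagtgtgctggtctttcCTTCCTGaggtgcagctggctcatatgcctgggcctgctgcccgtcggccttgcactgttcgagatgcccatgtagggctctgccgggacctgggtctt
Egfl7 window 2 (chr2:26583615-26583914, plus strand): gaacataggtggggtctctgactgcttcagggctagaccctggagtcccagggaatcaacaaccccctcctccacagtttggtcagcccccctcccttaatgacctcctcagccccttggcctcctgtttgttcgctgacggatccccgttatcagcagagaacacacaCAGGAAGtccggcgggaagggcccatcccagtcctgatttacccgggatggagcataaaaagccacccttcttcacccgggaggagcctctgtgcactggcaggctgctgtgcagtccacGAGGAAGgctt
Egfl7 window 3 (chr2:26586386-26586685, plus strand): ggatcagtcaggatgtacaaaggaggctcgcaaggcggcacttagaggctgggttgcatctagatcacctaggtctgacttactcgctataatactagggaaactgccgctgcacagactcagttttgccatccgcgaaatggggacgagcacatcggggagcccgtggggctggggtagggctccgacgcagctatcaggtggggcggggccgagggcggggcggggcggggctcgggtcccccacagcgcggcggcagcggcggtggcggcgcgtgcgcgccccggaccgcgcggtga
Tie1 (chr4:118489800-118490099, minus strand): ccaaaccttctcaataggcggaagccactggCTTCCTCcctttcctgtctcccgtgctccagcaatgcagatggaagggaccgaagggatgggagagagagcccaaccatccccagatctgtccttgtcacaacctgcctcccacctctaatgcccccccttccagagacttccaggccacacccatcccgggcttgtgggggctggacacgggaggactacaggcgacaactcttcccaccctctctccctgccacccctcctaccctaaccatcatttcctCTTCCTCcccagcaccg
Kdr (chr5:75978406-75978705, minus strand): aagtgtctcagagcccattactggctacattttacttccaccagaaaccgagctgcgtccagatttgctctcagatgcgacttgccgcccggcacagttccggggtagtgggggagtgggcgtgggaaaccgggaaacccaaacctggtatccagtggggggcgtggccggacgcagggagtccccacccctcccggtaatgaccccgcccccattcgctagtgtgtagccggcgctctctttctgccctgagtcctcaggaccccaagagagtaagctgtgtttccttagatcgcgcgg

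Windows 1 and 2 of Egfl7 and that of Tie1 held 2 words each, while window 3 of Egfl7 and that of Kdr held 0. Among the endothelial markers, 7 of 10 matched a window, and 5 of their 9 windows held at least 1 word. For the immune markers, 7 of 11 matched, and 6 of their 8 windows held one (both Ptprc windows overlap and share theirs). The other lists held one in 4 of 9 fibroblast, 3 of 5 epithelial and 2 of 2 mesothelial windows, which makes 20 of 33 over all markers, and the lists were not tested against each other. Over all 32817 RefSeq windows of the same length, 31.5% held at least 1 of the words, 13.3% CAGGAAG, 8.86% CCGGAAG and 13.6% GAGGAAG. A match describes the letters of the window and is not evidence of binding. No window was matched for Pecam1, Cdh5, Vwf, Cd14, Csf1r, Adgre1, C1qa, Thy1, Fap, Mfap5, Krt19, Msln and Wt1.

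Egfl7 encodes a secreted protein with EGF-like domains that is deposited around growing vessels, and the study also lists it, from these samples, among genes of neural stem cells, so its direction is not independent evidence. Its values were 8.98, 8.85 and 8.93 in differentiation and 7.30, 7.11 and 7.41 in proliferation. All 3 differentiation arrays lay well above all proliferation arrays. The means were 8.92 ± 0.07 in differentiation and 7.27 ± 0.15 in proliferation (SD, n = 3 each), a log2 fold change of 1.65 (standard error 0.10, 95% interval 1.41 to 1.89, adjusted p = 0.00183 from limma), or 3.13-fold. The call held with each array left out, with adjusted p from 0.00459 to 0.0224 and log2 fold changes from 1.57 to 1.71.

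The Egfl7 gene hosts the miRNA miR-126, which is known from endothelial cells. In RefSeq the hairpin Mir126a lies within the bounds of Egfl7 on chromosome 2, and the mature 3′ arm is shown with its seed, bases 2 to 8, in capitals.
mmu-miR-126a-3p (chr2:26591402-26591423, plus strand, GRCm38.p6): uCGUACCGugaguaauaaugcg
The array carries a probe set for the hairpin, which was looked up after the values of Egfl7 had been seen. It gave 3.17, 3.11 and 3.12 in differentiation and 3.22, 3.20 and 3.19 in proliferation, with little separation and below the odorant receptor mark on every array (log2 fold change -0.07, adjusted p = 0.745). The hairpin signal thus did not pass the test in samples where its host gene rose, and the mature miRNA was not measured.

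The other 9 endothelial markers did not pass. Pecam1, the adhesion molecule CD31, had 5.90, 5.90 and 5.91 in differentiation and 5.77, 5.97 and 5.87 in proliferation. The groups overlapped, and the 95% interval of the difference in array values, -0.17 to 0.24, holds no change as large as that of Egfl7. The Pecam1 mean over the 6 arrays, 5.89, lay below the median of all probe sets. Cdh5, the VE-cadherin of endothelial junctions, had 6.12, 6.27 and 6.30 in differentiation and 5.79, 6.65 and 5.95 in proliferation, with proliferation replicate 2 above the other arrays of its group. Its log2 fold change was 0.10 (interval -0.42 to 0.62), and without proliferation replicate 2 it was 0.36. Kdr, the main receptor for vascular endothelial growth factor, was higher on each differentiation array, with 6.67, 6.75 and 6.65 against 6.56, 6.57 and 6.47 in proliferation, yet the difference of 0.15 did not pass (adjusted p = 0.422).

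Flt1, a second receptor of the same factor, averaged 5.29 ± 0.15 in differentiation and 5.48 ± 0.33 in proliferation. Tek, the angiopoietin receptor, averaged 4.63 ± 0.32 in differentiation and 4.76 ± 0.22 in proliferation. For its relative Tie1 the means were 6.09 ± 0.12 in differentiation and 6.01 ± 0.12 in proliferation. None of these receptors moved by more than 0.19 on the log2 scale in either direction, and their intervals together ran from -0.61 to 0.32.

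Cldn5, a tight junction protein of vessels, had 5.99, 5.82 and 6.11 in differentiation and 5.79, 5.78 and 5.59 in proliferation, a difference of 0.25 (adjusted p = 0.332). Emcn, a sialomucin of capillaries and veins, went the other way, with 5.35, 5.71 and 5.72 in differentiation and 6.18, 6.08 and 5.83 in proliferation (log2 fold change -0.44, interval -0.78 to -0.10, adjusted p = 0.188). In both genes the groups were separate, but by little. Vwf, the von Willebrand factor of platelets and endothelium, averaged 5.95 ± 0.15 in differentiation and 5.83 ± 0.07 in proliferation.

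Egfl7, Kdr and Cdh5 were the endothelial markers whose mean over the 6 arrays exceeded the median of all probe sets, while Flt1 and Tek lay below the odorant receptor mark. Of 18 further endothelial genes on the list, 0 rose, 3 fell and 15 did not pass, with a median change of 0.01. Clec14a, a C-type lectin of vessels, had 7.68, 8.03 and 7.94 in differentiation and 9.23, 9.17 and 9.39 in proliferation, a log2 fold change of -1.38 (adjusted p = 0.00356). The groups were clearly separate, and the call held with each array left out but not when the methods' t-test was adjusted by Benjamini-Hochberg (adjusted p = 0.0502). Plvap, of the diaphragms of fenestrated vessels, had a log2 fold change of -0.65 (adjusted p = 0.02), and Eng, a coreceptor for TGF-beta that is also made by other mesenchymal cells, of -0.63 (adjusted p = 0.0413). Both calls were lost on leaving out any single array other than proliferation replicate 2 (adjusted p from 0.0536 to 0.0813 for Plvap and from 0.0655 to 0.169 for Eng). The study names Eng among its changed genes, so that its direction is not independent evidence.

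**Figure D1:**
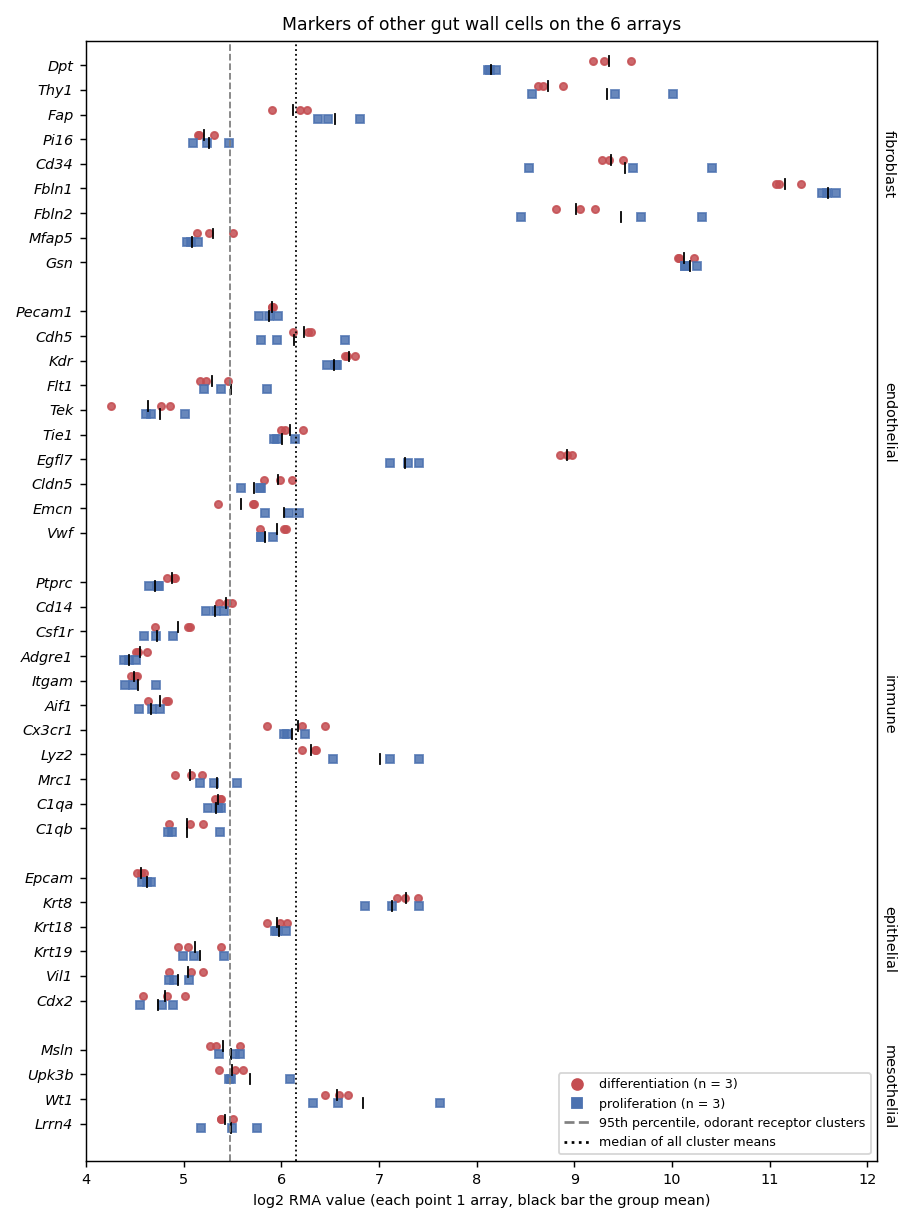
Log2 RMA value (horizontal axis) of each of the 40 markers (rows, grouped by cell type), with differentiation arrays as red circles above and proliferation arrays as blue squares below, n = 3 each, and black bars for group means. The dashed line marks the 95th percentile of odorant receptor probe sets (5.47) and the dotted line the median of all probe sets (6.15); Dpt and Egfl7 show separate groups, while Thy1, Cd34, Fbln2 and Wt1 spread widely in proliferation.

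Among the fibroblast markers, Dpt rose, 0 fell and 8 did not pass. Dpt encodes dermatopontin, a small matrix protein that binds collagen and decorin. Its values were 9.19, 9.30 and 9.58 in differentiation and 8.20, 8.14 and 8.12 in proliferation. Every differentiation array lay above every proliferation array, and the proliferation arrays were close together. The log2 fold change was 1.20 (standard error 0.12, 95% interval 0.93 to 1.48, adjusted p = 0.00488 from limma), or 2.3-fold, a call kept on omitting any single array (adjusted p from 0.0126 to 0.0337). With Benjamini-Hochberg adjustment of the methods' t-test, Dpt had an adjusted p of 0.0574. The window around the start of Dpt, the only fibroblast marker that passed, is shown without capitals.
Dpt (chr1:164796413-164796712, plus strand, GRCm38.p6): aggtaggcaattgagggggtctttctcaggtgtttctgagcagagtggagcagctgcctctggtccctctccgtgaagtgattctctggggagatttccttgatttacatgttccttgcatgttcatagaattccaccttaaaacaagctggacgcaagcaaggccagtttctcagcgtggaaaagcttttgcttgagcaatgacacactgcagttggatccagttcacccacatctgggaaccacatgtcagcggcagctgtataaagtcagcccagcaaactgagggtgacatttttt

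Fbln1, a fibulin of basement membranes and elastic fibres, was lower on each differentiation array, with 11.10, 11.07 and 11.32 against 11.54, 11.68 and 11.59 in proliferation. The difference of -0.44 (interval -0.67 to -0.21) narrowly missed the threshold over all probe sets (adjusted p = 0.0632) and passed it in 5 of the alternative settings (adjusted p from 0.00111 to 0.0262), in each of which the direction was the same. Fap, a serine protease of activated fibroblasts, also had separate groups, with 5.90, 6.26 and 6.19 in differentiation and 6.81, 6.37 and 6.48 in proliferation (log2 fold change -0.44, adjusted p = 0.212).

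Thy1, Cd34 and Fbln2 varied so much among proliferation arrays that the groups overlapped entirely. Thy1, a surface glycoprotein of fibroblasts and also of neurons, had 8.63, 8.88 and 8.68 in differentiation and 10.01, 8.57 and 9.42 in proliferation. Cd34, a sialomucin of fibroblasts, vessels and haematopoietic progenitors, had 9.28, 9.35 and 9.50 in differentiation and 10.41, 8.54 and 9.60 in proliferation. Fbln2, a second fibulin, had 8.81, 9.06 and 9.21 in differentiation and 10.31, 8.45 and 9.68 in proliferation. In all 3 genes proliferation replicate 1 was the highest and proliferation replicate 2 the lowest of the 6 arrays. The log2 fold changes were -0.60 (interval -1.40 to 0.19) for Thy1, -0.14 (-1.14 to 0.86) for Cd34 and -0.45 (-1.48 to 0.57) for Fbln2. These intervals were the widest among the fibroblast markers.

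Gsn, the actin-severing protein gelsolin, averaged 10.12 ± 0.10 in differentiation and 10.18 ± 0.08 in proliferation, with an interval of -0.27 to 0.16. Mfap5, a protein of elastin microfibrils, averaged 5.30 ± 0.18 in differentiation and 5.08 ± 0.06 in proliferation, and Pi16, known from a fibroblast subset of many organs, 5.21 ± 0.09 in differentiation and 5.26 ± 0.18 in proliferation. The last 2 lay below the odorant receptor mark, while the other 7 fibroblast markers lay above the median of all probe sets.

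Of 12 further fibroblast genes, 2 rose, 0 fell and 10 did not pass, with a median change of 0.18. Both that rose shape collagen fibrils, and both are listed by the study as changed in these samples, so their direction is not independent evidence. Col14a1, a collagen associated with fibrils, had 10.26, 10.04 and 10.18 in differentiation and 7.51, 7.28 and 7.84 in proliferation, a log2 fold change of 2.62 (adjusted p = 0.0014). Lox, the lysyl oxidase that crosslinks collagen and elastin, had 8.22, 8.06 and 8.49 in differentiation and 6.71, 6.44 and 6.51 in proliferation, a log2 fold change of 1.70 (adjusted p = 0.00313). Neither gene had overlapping groups, and both passed with each array left out. The fibrillar collagen Col1a1 and the proteoglycan Dcn, picked out after their values were seen, differed by 0.17 (adjusted p = 0.716) in Col1a1 and 0.00 (adjusted p = 0.999) in Dcn on the log2 scale.

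**Figure D2:**
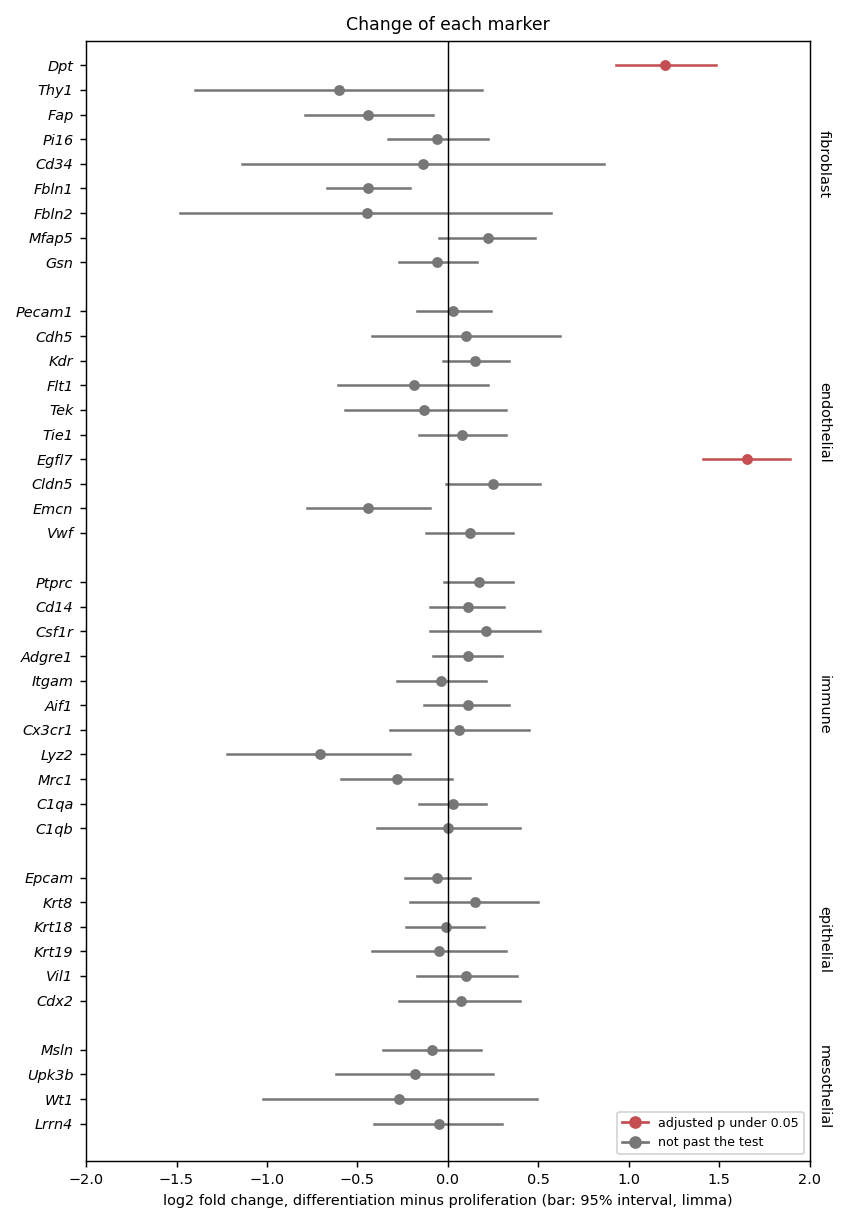
Log2 fold change, differentiation minus proliferation (horizontal axis), of each marker with its 95% interval from limma (n = 3 arrays per group), in red where the adjusted p was under 0.05 and grey otherwise. Dpt at 1.20 and Egfl7 at 1.65 stand to the right of all other markers, and the intervals of Thy1, Cd34, Fbln2 and Wt1 are the widest.

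In the immune list 0 of 11 markers passed the test in either direction, with 1 at an unadjusted p under 0.05. Defining markers of macrophages gave low signals in both groups. Ptprc had 4.83, 4.90 and 4.91 in differentiation and 4.74, 4.75 and 4.64 in proliferation. Csf1r, the receptor for colony-stimulating factor 1, had 5.04, 4.71 and 5.06 in differentiation and 4.89, 4.59 and 4.72 in proliferation. Adgre1, an adhesion receptor of mature macrophages, averaged 4.55 ± 0.06 in differentiation and 4.44 ± 0.06 in proliferation. Each of these lay below the odorant receptor mark on every array, as did Itgam, the integrin CD11b, with 4.49 ± 0.03 in differentiation and 4.53 ± 0.17 in proliferation, and Aif1, the calcium-binding protein IBA1, with 4.76 ± 0.12 in differentiation and 4.66 ± 0.11 in proliferation.

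The complement chains C1qa and C1qb averaged 5.35 ± 0.03 and 5.03 ± 0.18 in differentiation and 5.33 ± 0.07 and 5.03 ± 0.29 in proliferation. Cd14, a coreceptor for lipopolysaccharide, averaged 5.43 ± 0.06 in differentiation and 5.32 ± 0.09 in proliferation, and Mrc1, the mannose receptor of tissue macrophages, 5.06 ± 0.14 in differentiation and 5.34 ± 0.19 in proliferation. The mean over the 6 arrays stayed below the odorant receptor mark for 9 of the 11 markers. The exceptions were Lyz2 and Cx3cr1, the fractalkine receptor, which averaged 6.17 ± 0.31 in differentiation and 6.11 ± 0.11 in proliferation.

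Lyz2, the lysozyme of macrophages and granulocytes, had the largest difference of the list. Its values were 6.35, 6.21 and 6.34 in differentiation and 7.41, 6.53 and 7.11 in proliferation. The groups were separate, with proliferation replicate 2 nearest to differentiation. The log2 fold change was -0.71 (interval -1.22 to -0.21, adjusted p = 0.149), and without proliferation replicate 2 it was -0.95 and passed (adjusted p = 0.0184). Of 14 further immune genes 0 passed. The mean over the 6 arrays lay above the odorant receptor mark for 4 of them, 1 also above the median of all probe sets, and below the mark for 10. Cd53, a leukocyte tetraspanin picked out after its values were seen, showed the same arrays as high and low, with 4.38, 4.37 and 4.49 in differentiation and 6.49, 4.50 and 5.35 in proliferation (log2 fold change -1.03, adjusted p = 0.337).

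The 6 epithelial markers did not pass either, with 0 at an unadjusted p under 0.05, and their changes lay between -0.06 and 0.15. Epcam, the adhesion molecule of epithelia, had 4.52, 4.56 and 4.59 in differentiation and 4.62, 4.66 and 4.57 in proliferation, below the odorant receptor mark throughout. The 95% interval of its difference was -0.24 to 0.12. Vil1, the villin of the brush border, averaged 5.04 ± 0.17 in differentiation and 4.94 ± 0.10 in proliferation. Cdx2, the transcription factor of intestinal epithelium, averaged 4.81 ± 0.22 in differentiation and 4.74 ± 0.17 in proliferation. These intestinal markers and Krt19, with 5.12 ± 0.23 in differentiation and 5.17 ± 0.21 in proliferation, all lay below the odorant receptor mark on average.

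Krt8 and Krt18 are the keratin partners of simple epithelia and occur in some other cells as well. Krt8 had 7.27, 7.18 and 7.40 in differentiation and 7.41, 7.13 and 6.86 in proliferation, above the median of all probe sets on every array. Krt18 had 5.99, 5.85 and 6.06 in differentiation and 6.05, 5.96 and 5.93 in proliferation, between the marks. In both genes the groups overlapped, with log2 fold changes of 0.15 (interval -0.21 to 0.50) and -0.01 (-0.23 to 0.20). Of 14 further epithelial genes, 0 passed, and their changes ran from -0.21 to 0.23.

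All 4 mesothelial markers had negative differences, from -0.27 to -0.05, and 0 passed. Msln, the mesothelin of the serosal surface, averaged 5.40 ± 0.16 in differentiation and 5.48 ± 0.11 in proliferation. Upk3b, a uroplakin shared by mesothelium and urothelium, averaged 5.49 ± 0.13 in differentiation and 5.68 ± 0.36 in proliferation, and Lrrn4, a leucine-rich repeat protein, 5.42 ± 0.07 in differentiation and 5.48 ± 0.29 in proliferation. On average Upk3b lay just above the odorant receptor mark, and Msln and Lrrn4 just below it. Wt1, the Wilms tumour transcription factor, had 6.45, 6.68 and 6.59 in differentiation and 7.62, 6.32 and 6.58 in proliferation. A single array, proliferation replicate 1, stood above the other 5. The log2 fold change of Wt1 was -0.27 (interval -1.02 to 0.49) and turned to 0.13 without that array, that of Upk3b was -0.18 and turned to 0.03, and that of Lrrn4 was -0.05 and turned to 0.08.

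Of 7 further mesothelial genes 1 rose, 0 fell and 6 did not pass. It was Gpm6a, a membrane glycoprotein of mesothelium but also of neurons, with 5.97, 5.93 and 5.96 in differentiation and 5.49, 5.15 and 5.49 in proliferation (log2 fold change 0.57, adjusted p = 0.0415). The call was lost on leaving out any single array except proliferation replicate 2 (adjusted p from 0.059 to 0.175).

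Several markers spread widely among the proliferation samples. The SD within proliferation exceeded 0.4 in 6 of the 40 markers (15.0%), Thy1, Cd34, Fbln2, Cdh5, Lyz2 and Wt1, whereas it did so in 3.70% of all genes. Within differentiation the SD exceeded 0.4 in 0 markers, and in 0.577% of all genes. The range over the 3 proliferation arrays was 1.87 for Cd34, 1.86 for Fbln2, 1.44 for Thy1 and 1.30 for Wt1, while over the 3 differentiation arrays it was 0.22, 0.40, 0.25 and 0.23 for the same genes. Over all 40 markers the larger SD was that of proliferation in 23 (57.5%), and in 54.6% of all genes.

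Proliferation replicate 1 was the highest array of its group in 30 of the 40 markers (75.0%), among them 8 of 9 fibroblast, 8 of 11 immune, 5 of 6 epithelial and 4 of 4 mesothelial markers but 5 of 10 endothelial markers, and in 48.1% of all genes. The mean over the fibroblast markers was 8.15, 8.25 and 8.39 in differentiation and 8.68, 8.01 and 8.36 in proliferation replicates 1, 2 and 3. For the mesothelial markers it was 5.66, 5.71 and 5.79 in differentiation and 6.26, 5.58 and 5.76 in proliferation. Both sets of markers thus had their highest and lowest mean of the 6 arrays within the proliferation group. In the fibroblast set these means carry the wide proliferation ranges of Cd34, Fbln2 and Thy1 (1.87, 1.86 and 1.44), and not every marker shared them. For the 12 further fibroblast genes the means were 9.43, 9.42 and 9.54 in differentiation and 9.24, 8.77 and 9.02 in proliferation. Here the differentiation means are raised by Col14a1 and Lox, which rose by 2.62 and 1.70 on the log2 scale. Within proliferation, replicate 1 was the highest array in 9 of these 12 genes and replicate 2 the lowest in 11. Over the 10 enteric neural and glial markers the mean was 10.72, 10.79 and 10.73 in differentiation and 10.30, 10.49 and 10.49 in proliferation, lowest in proliferation replicate 1, and over 7 pericyte markers it was 8.44, 8.54 and 8.59 in differentiation and 8.99, 8.47 and 8.70 in proliferation. The part of cell composition in these values was not tested.

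Results for single markers followed these arrays. Without proliferation replicate 1 the log2 fold change was -0.26 for Thy1, 0.31 for Cd34 and -0.04 for Fbln2, and without proliferation replicate 2 it was -0.99, -0.62 and -0.97 for the same genes. None of these passed. Not every fibroblast marker shared the pattern, since Fbln1 was lowest of its group in proliferation replicate 1 and the SD of Dpt over the proliferation arrays was 0.04.

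**Figure D3:**
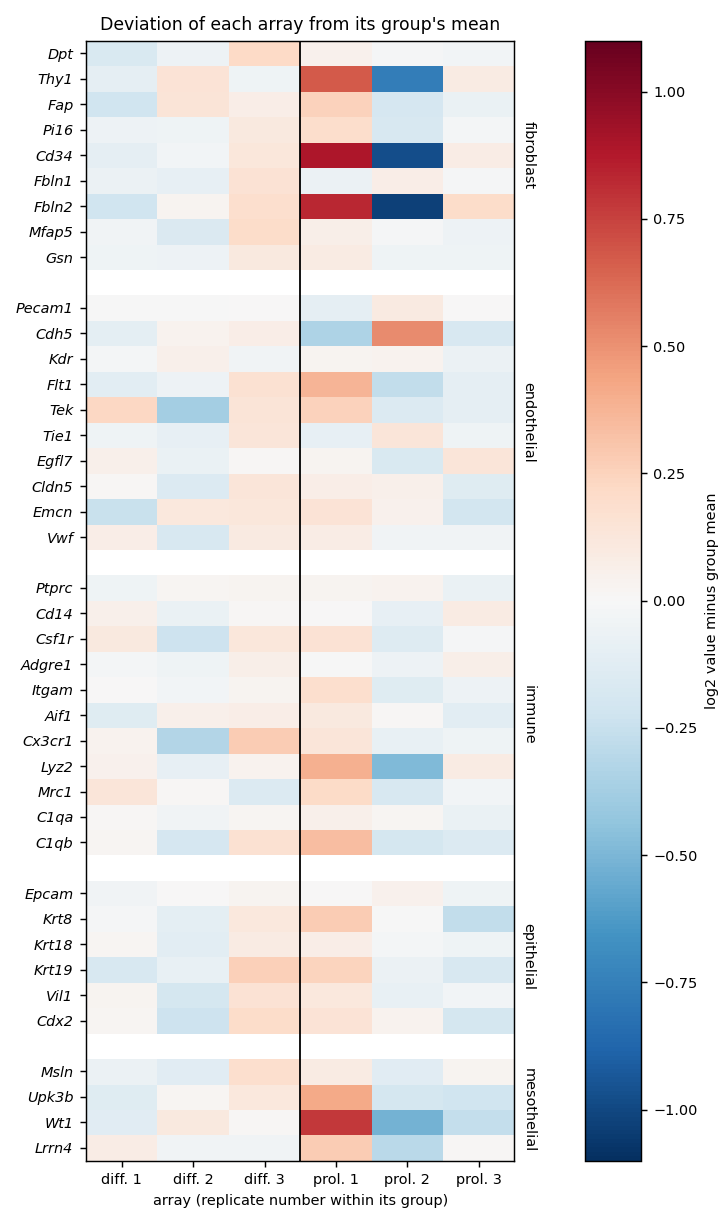
Deviation of each array (columns, diff. for differentiation and prol. for proliferation, replicates 1 to 3) from the mean of its own group in log2 units (colour scale, red above and blue below the group mean), for each marker (rows, grouped by cell type). Proliferation replicate 1 is red and replicate 2 blue for Thy1, Cd34, Fbln2, Lyz2 and Wt1, and no differentiation value of these genes deviates as far.

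For comparison, lists of neural, muscle and pericyte genes were counted in the same way. Of 10 measured neural and glial markers 4 rose, 1 fell and 5 did not pass, and of 8 smooth muscle markers 4 rose, 1 fell and 3 did not pass. Nes, the progenitor filament nestin, led the neural increases, by 1.27 on the log2 scale (adjusted p = 0.00206). Among smooth muscle genes, Tagln, or transgelin, had a log2 fold change of 1.44 (adjusted p = 0.00586) and Actg2, the enteric smooth muscle actin, of 1.22 (adjusted p = 0.00406). All 3 passed with each array left out, but by the methods' t-test with Benjamini-Hochberg adjustment Nes passed (0.0349) and Tagln (0.0733) and Actg2 (0.0516) did not. The calls of Gfap, Tubb3 and Acta2, which also rose, were each lost on omitting any of 4 arrays (adjusted p up to 0.0829, 0.0994 and 0.0838), and those of Ngfr, which rose, and Smtn, which fell, without differentiation replicate 1 (0.0561 and 0.0819). Of the 7 pericyte markers 1 fell, Cspg4, a proteoglycan of pericytes and also of glial progenitors, with 8.76, 8.82 and 8.86 in differentiation and 10.36, 10.46 and 10.30 in proliferation (log2 fold change -1.56, adjusted p = 0.00125). Several genes of these lists are named by the study, which chose them on these samples. The differences between lists were not tested.

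**Figure D4:**
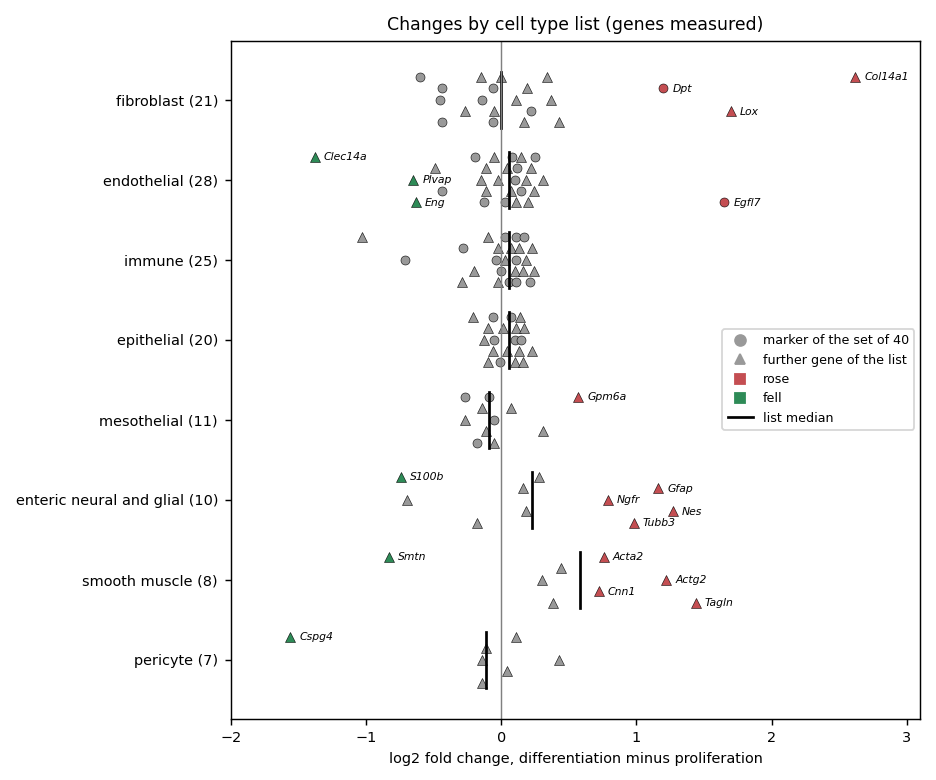
Log2 fold change, differentiation minus proliferation (horizontal axis), of each measured gene by cell type list (rows, number of genes in brackets, n = 3 arrays per group), with circles for the 40 markers, triangles for further genes of a list, red for genes that rose, green for genes that fell and grey for genes not past limma's test. Black bars are list medians, 0.06 for endothelial, immune and epithelial genes, and the vertical scatter within a row carries no value.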

How the data were processed

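Expression was measured in 6 samples of enterospheres with 1 GeneChip Mouse Gene 1.0 ST array each. The authors deposited log2 values and, by their methods, scanned with AGCC 3.0, checked the arrays in Expression Console 1.0 and ran RMA in Partek Software 6.6. RMA brings the arrays to 1 common distribution, which hides any shift common to most transcripts. The genome build behind the values is not given in the sources used here.

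Symbols came from the platform annotation. Of the 35556 transcript clusters, 21789 carried 1 symbol, and each of the 40 markers had exactly 1 such cluster. The comparison used lmFit and eBayes of limma 3.58.1 in R 4.3.3 (two-sided), with group as the only term and Benjamini-Hochberg adjustment over all clusters. An adjusted p under 0.05 was required to say that a gene rose or fell. The 95% intervals used the moderated standard error, with 2.83 prior degrees of freedom, and were not adjusted for the number of genes. Plots were drawn with matplotlib 3.10.9. The limma comparison was also tested on simulated data, in which 200 of 35556 clusters differed between groups of 3 arrays. It recovered 22.7% of 1.5-fold, 51.9% of 2-fold and 84.2% of 4-fold changes, and 4 of 107 calls were false. The simulation gave both groups the same spread, and 1459 clusters passed in the measured data. These rates therefore need not hold for the markers.

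All 40 markers were named. From the further genes of each cell type list, up to 4 past the test were named by size of change, and any other gene is marked as picked after its values were seen. The markers, lists and tests were chosen with earlier results of these data known. Alternatives were a replicate block, cyclic loess, median centring, robust limma-trend, clusters at or above the median mean, clusters with 1 symbol, array weights, leaving out each array, averaging a gene's clusters, and the methods' t-test. Promoter and miRNA sequences are those of RefSeq, build GRCm38.p6. Some genes of the lists are not reported here.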

Additional observations from a re-analysis of the deposited data

How the results depend on the processing

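Dpt and Egfl7 kept their direction in each alternative and passed in all but one, since Dpt did not pass when the methods' t-test was adjusted by Benjamini-Hochberg. The number of markers past the test was 2 in the comparison as reported, 1 by that adjusted t-test, 15 (9 higher, 6 lower) with array weights, and between 2 and 3 with 1 array left out. Array weights put most of the weight on differentiation replicate 1 (7.45) and proliferation replicate 3 (3.62). Over all probe sets 1459 passed as reported, 12721 with array weights, 253 by the adjusted t-test, and between 294 and 1297 with 1 array left out, lowest when differentiation replicate 1 was omitted. The count was 480 when proliferation replicate 3 was omitted, and 683 and 850 for differentiation replicates 2 and 3. With the replicate number as a block 664 probe sets passed, and of the markers Dpt and Egfl7. Deviations of same-numbered arrays from their group means correlated at 0, 0.09 and -0.07, and those of different-numbered arrays at -0.17 to 0.16. With so few arrays per group, these values cannot show whether the numbers pair the samples. Eng, Plvap, Gpm6a, Tubb3 and Smtn did not pass with the block. Of the 40 markers 21 lay above the odorant receptor mark on average, 12 above the 99th percentile of the same probe sets (6.25) and 37 above the 95th percentile of vomeronasal receptors (4.65). Small differences of markers that did not pass changed sign. After cyclic loess and median centring these were Pecam1 (-0.02 and -0.00076), C1qa (-0.03 and -0.01) and C1qb (-0.06 and -0.03). With array weights they were Tek (0.14), Itgam (0.01), Krt18 (0.04) and Lrrn4 (0.01). With 1 array left out the log2 fold change ran from -0.14 to 0.04 for Pi16, -0.62 to 0.31 for Cd34, -0.02 to 0.09 for Pecam1, -0.07 to 0.36 for Cdh5, -0.24 to 0.06 for Tek, -0.11 to 0.06 for Itgam, -0.08 to 0.23 for Cx3cr1, -0.01 to 0.06 for C1qa, -0.09 to 0.17 for C1qb, -0.06 to 0.04 for Krt18, -0.18 to 0.07 for Krt19, -0.03 to 0.18 for Cdx2, -0.29 to 0.03 for Upk3b, -0.53 to 0.13 for Wt1 and -0.20 to 0.08 for Lrrn4. The causes of these changes were not tested.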
